A study of Mus musculus with 9 samples.

Results

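The genes described are the heat shock proteins and J-domain chaperones of mouse brain, taken as every GENCODE M21 symbol of the Hspa, Hspb, Hspd, Hspe, Hsph, Hsp90, Dnaja, Dnajb or Dnajc series. Of 72 such symbols in the files, 65 had a value of at least 10 in 3 or more libraries and are the members. They stand among 21853 protein-coding genes in the files, of which 15411 passed the same filter. The members were 13 Hsp70 genes, 1 Hsp110 gene, 3 Hsp90 genes, the chaperonin pair Hspd1 and Hspe1, 6 small heat shock protein genes, and 4, 11 and 25 J-domain genes of classes A, B and C. The 7 symbols below the filter were Dnajb7, Dnajb8, Dnajc22, Dnajc5b, Dnajc5g, Hspb7 and Hspb9. The last pair reached 62.6 and 96.5, each in a single HD-WNT5B library.

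Poly(A) RNA was sequenced in 9 libraries from whole-tissue brain samples, 3 in each of 3 groups. WT-Control libraries came from wild-type mice and HD-Control libraries from N171-82Q mice, a Huntington disease (HD) line that expresses an N-terminal fragment of human huntingtin with an expanded glutamine repeat. Both received the adeno-associated virus (AAV) pAAV-GFAP(pro)-Control-mCherry. HD-WNT5B libraries came from N171-82Q mice given pAAV-GFAP(pro)-WNT5B-P2A-mCherry, which adds the Wnt ligand WNT5B to mCherry. The promoter of GFAP, an astrocyte gene, drove the cargo in all 3 groups, and the injection was made into the striatum. The labels used here give no age or sex and do not tie libraries to animals, and no group without virus was analysed here. The p-values therefore measure only the spread between these libraries, which may be technical.

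Hsp70 proteins bind short unfolded stretches of other proteins and let them go in a cycle driven by ATP. J-domain proteins bring clients to Hsp70 and start its ATP hydrolysis, and nucleotide exchange factors such as Hsp110 reset it. Hsp90 takes over clients that are close to folded, the Hsp60 and Hsp10 chaperonin encloses them in mitochondria, and small heat shock proteins hold unfolded proteins without using ATP. Heat shock factors, mainly HSF1, drive many of these genes in the cytosol, and the unfolded protein response drives those of the endoplasmic reticulum (ER). These systems act on polyglutamine proteins in neurons, and class B J-domain proteins such as DNAJB6 are known suppressors of their aggregation.

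The deposited values behaved as read counts divided by one factor per library, and are called normalized reads here. Depth was 67.8 to 77.8 M estimated reads in WT-Control, 69.8 to 90.6 M in HD-Control and 37.3 to 52.1 M in HD-WNT5B libraries, with 17027 to 17132, 17223 to 17349 and 14291 to 14588 genes above 0. For genes with a mean above 100, the SD of log2 values had a median of 0.039, 0.033 and 0.233. Between HD-WNT5B and HD-Control the median log2 change of all genes ran from 1.06 in the shortest quintile of transcripts to -1.03 in the longest, and from -0.89 in the quintile lowest in GC content to 0.48 in the highest. Depth, detection, scatter and these trends all coincide with the HD-WNT5B group, so they cannot be told apart from the WNT5B virus. Summed levels of 6 microglia markers were 22890 to 23040 in WT-Control, 8565 to 8687 in HD-Control and 27950 to 33590 in HD-WNT5B libraries, those of 6 astrocyte markers 268500 to 273100, 159300 to 160800 and 70290 to 74920, and those of 8 striatal projection neuron markers 455600 to 456500, 409700 to 414100 and 243300 to 256800. Of these markers none was at 0 in any library. The share of such cell types in the member changes below was not tested, and in whole tissue fewer cells of a type and less RNA per cell cannot be told apart.

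In HD-Control against WT-Control, 35 of 65 members (53.8 percent) passed the test, beside 45.1 percent of all genes tested. The test was limma on log2 of the value plus 3 over all 9 libraries, at a Benjamini-Hochberg adjusted p below 0.05. Of these members 19 were higher, beside 24.5 percent of all genes, and 16 were lower, beside 20.7 percent. A weight for each group lowers the part of the scattered HD-WNT5B libraries in the spread without leaving them out. With it 53 passed (27 higher, 26 lower), beside 82.9 percent of all genes (43.1 higher, 39.9 lower). In a fit of the 2 groups alone, which does leave them out, 54 passed, beside 84.4 percent. The values of the groups did not overlap for 28 members that were higher and 26 that were lower in HD-Control, beside 43.6 and 40.4 percent of all genes. Changes were small: the median was 0.02, the same as over all genes, and no called member was at least 2-fold higher while 4 called members were at least 2-fold lower (Hsph1, Hspa12b, Dnajc15 and Dnajc28), beside 4.46 and 5.75 percent of all genes counted the same way. Hspa1l at 1.40 and Dnajc25, singled out after its values were seen, at 1.01 were not called. All 3 groups share one estimate of the spread, and leaving out a single HD-WNT5B library brought further members past the threshold: Hsp90aa1, Hspa1l, Dnaja1, Dnaja2, Dnajc6 and Dnajc19 without the third (adjusted p of 1.49e-05 to 0.0314), Dnaja1, Dnajb11, Hspb3 and Hspb8 without the second (0.00317 to 0.0434), and Dnajc6 and Hspb3 without the first (0.0309 and 0.0223).

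In HD-WNT5B against HD-Control, 51 members (78.5 percent) passed, beside 77.5 percent of all genes, so their share was close to the background. Of these 27 were higher and 24 lower, beside 35.8 and 41.7 percent of all genes. When all libraries were brought to one total (equal totals), 21 were higher and 34 lower, beside 25.9 and 54.6 percent of all genes, and the median of all genes moved from -0.23 to -0.76. With a weight for each group 49 passed, beside 70.1 percent. The groups did not overlap for 28 members that were higher and 24 that were lower, beside 36.2 and 42.5 percent of all genes. The median of the members was -0.07, and 18 called members were at least 2-fold higher and 11 at least 2-fold lower, beside 23.6 and 28.8 percent of all genes counted the same way. Hspa1l (-2.11), Dnajb13 (-1.78) and Dnajc25 (-1.27), the last pair singled out after their values were seen, were not called. The 2 comparisons share the HD-Control libraries, so their values are given side by side only. Single changes span from -2.58 for Dnajb4 to 4.27 for Hspb3 in the plot of log2 changes by family.

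**Figure D1:**
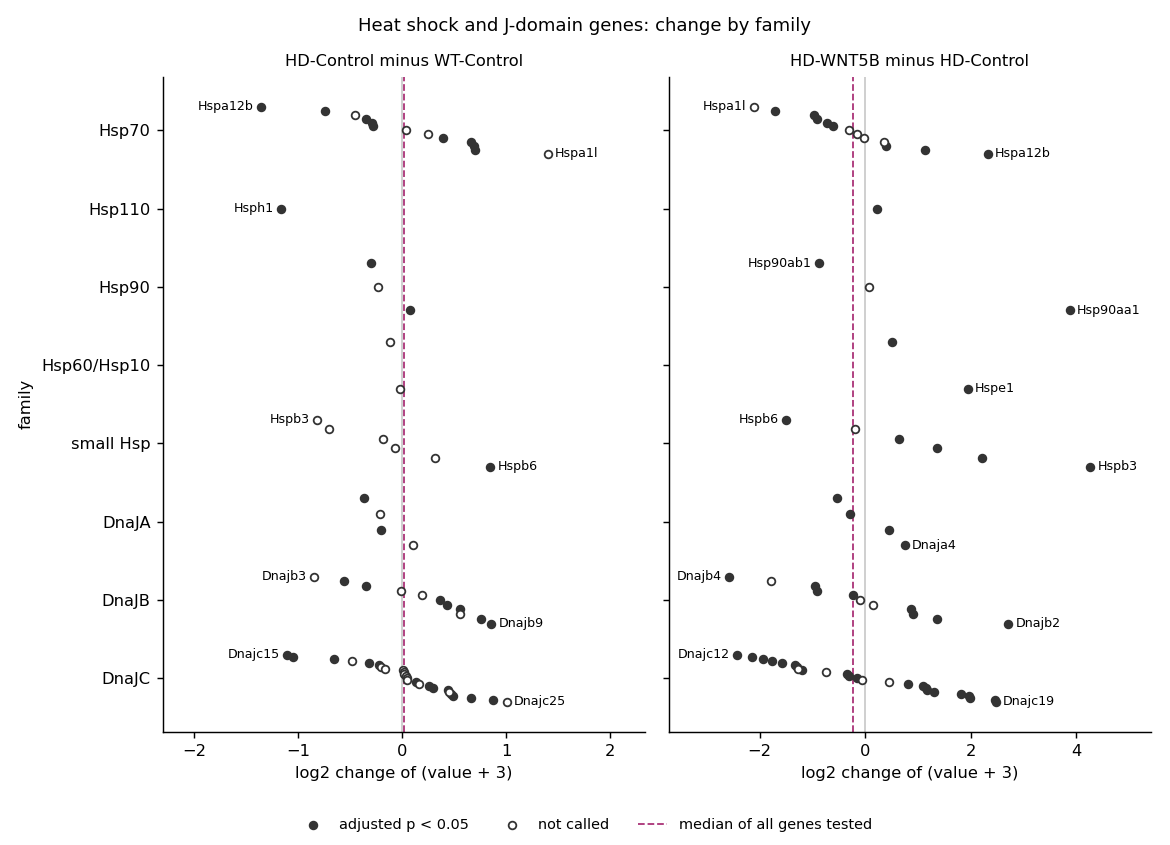
Log2 change of (value + 3) of each of the 65 members by family (rows; points sorted by change) in HD-Control minus WT-Control (left) and HD-WNT5B minus HD-Control (right), with different horizontal scales. Filled points passed limma at an adjusted p below 0.05 and the dashed line is the median of all genes tested (0.02 and -0.23); Hsph1 at -1.16 stands lowest but for Hspa12b on the left, and Hsp90aa1 at 3.88 and Hspb3 at 4.27 stand highest on the right.

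The cytosolic Hsp90 pair changed places in HD-WNT5B libraries. Hsp90aa1 (chr12:110690605-110702728) encodes the stress-inducible Hsp90 alpha, and Hsp90ab1 (chr17:45567775-45573271) the constitutive Hsp90 beta. Normalized reads of Hsp90aa1 were 40800, 40250 and 40460 in WT-Control, 34690, 34530 and 34710 in HD-Control and 560600, 576700 and 409100 in HD-WNT5B libraries. Hsp90ab1 had 89290, 89940 and 88450 normalized reads in WT-Control, 93600, 94080 and 94980 in HD-Control and 50180, 52500 and 51680 in HD-WNT5B libraries. Every HD-WNT5B library was above every other library for Hsp90aa1 and below every other library for Hsp90ab1. Hsp90aa1 rose 14.7-fold against HD-Control (log2 3.88, SE 0.11, limma adjusted p = 5.8e-09), the 217th largest rise of 15411 genes, and Hsp90ab1 fell to 0.546 of its HD-Control level (log2 -0.87, SE 0.03, limma adjusted p = 7e-09). Against WT-Control the log2 changes were 3.65 and -0.79 (limma adjusted p = 7.7e-09 and 1.1e-08). Per kb of the longest annotated transcript, the ratio of Hsp90aa1 to Hsp90ab1 was 0.344 to 0.351 in WT-Control, 0.281 to 0.285 in HD-Control and 6.08 to 8.58 in HD-WNT5B libraries. Of the 50-base words in the transcripts of Hsp90aa1, 58.5 percent also occur in another gene, mostly the gene model Gm12346, so its level is uncertain where reads could be split, and the value for Hsp90ab1 is 4.49 percent. Counted on the sense strand alone, 462 genes tested had more than 50 percent of shared words. Their median log2 change in HD-WNT5B against HD-Control was -0.74. The 5 members among them had a median of 1.14, with 3 higher and 0 lower, beside 35.8 and 41.7 percent of all genes. The part of shared words in these changes was not tested.

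In HD-Control against WT-Control the changes of the cytosolic Hsp90 genes were small. Hsp90aa1 was lower in all 3 HD-Control libraries without passing the test (log2 -0.23, SE 0.11, limma adjusted p = 0.142), and it passed with a weight for each group (adjusted p = 5.4e-10). The rise of Hsp90ab1 (log2 0.08, SE 0.03, limma adjusted p = 0.0386) was lost without any one of the 6 control libraries (adjusted p of 0.09 to 0.137) and with equal totals (0.153). 

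Members together held 0.898 to 0.903 percent of all normalized reads in WT-Control, 0.856 to 0.859 percent in HD-Control and 1.15 to 1.30 percent in HD-WNT5B libraries. Without Hsp90aa1 they held 0.823 to 0.829, 0.794 to 0.797 and 0.609 to 0.636 percent, the smallest share then being that of HD-WNT5B. Per kb, the order in both control groups was Hsp90ab1, Hspa8 and Hsp90aa1, at 35410 ± 297, 22570 ± 144 and 12340 ± 85.2 in WT-Control (SD, n = 3) and 37390 ± 277, 18620 ± 80.5 and 10560 ± 30.2 in HD-Control. In HD-WNT5B libraries it was Hsp90aa1 at 157100 ± 28180, Hspa8 at 40970 ± 1753, Hsp90ab1 at 20420 ± 466 and Dnajb2 at 9444 ± 350, and neighbours in each of these orders were farther apart than their SDs.

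**Figure D2:**
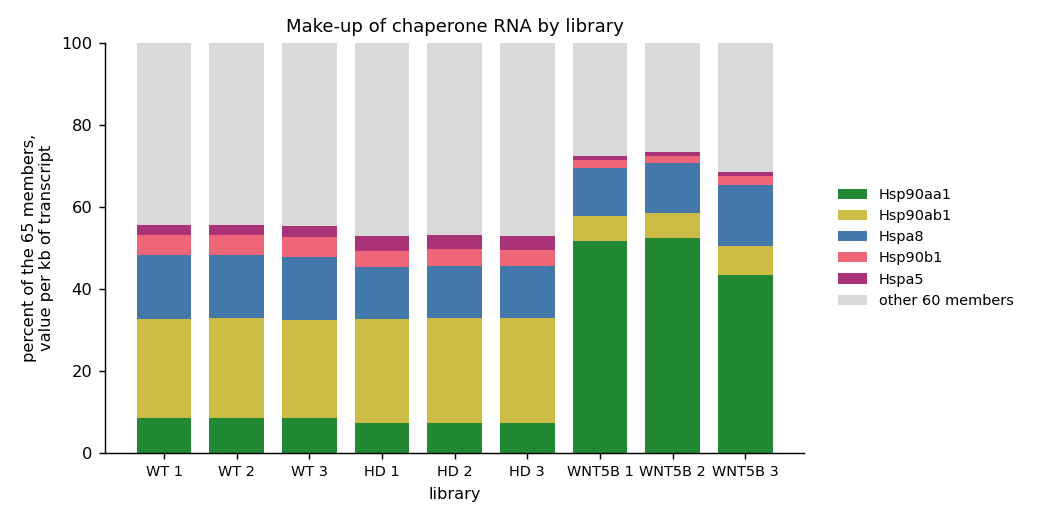
Share of each named chaperone in the summed value per kb of the 65 members (vertical axis, percent) for each of the 9 libraries (horizontal axis). Hsp90aa1 made up 8.37 to 8.50 percent in WT-Control, 7.20 to 7.23 percent in HD-Control and 43.3 to 52.3 percent in HD-WNT5B libraries.

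Among cytosolic Hsp70 and Hsp110 genes, Hsph1, Hspa4, Hspa4l and Hspa8 fell in HD-Control, and Hspa2 and Hspa14 rose. Hsph1 (chr5:149614287-149636376) encodes Hsp110, an exchange factor for Hsp70 that also pulls proteins out of aggregates. The WT-Control libraries held 19060, 19100 and 19270 normalized reads of Hsph1, the HD-Control libraries 8508, 8598 and 8575, and the HD-WNT5B libraries 9911, 10500 and 9489. WT-Control libraries lay far above both N171-82Q groups, which did not overlap with each other. Hsph1 fell in HD-Control by 1.16 on the log2 scale (SE 0.04, limma adjusted p = 4.2e-07), and the later difference of HD-WNT5B from HD-Control, 0.22 (adjusted p = 0.00071), turned to -0.34 with equal totals. HD-WNT5B libraries were below WT-Control (log2 -0.94, adjusted p = 4.2e-08; -0.16 after removal of the length and GC trend).

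Hspa4 (chr11:53259814-53300457), the Apg-2 protein of the same Hsp110 subfamily, followed. Normalized reads of Hspa4 were 14340, 14570 and 14620 in WT-Control, 8518, 8824 and 8768 in HD-Control and 11740, 10790 and 11890 in HD-WNT5B libraries. The 3 groups did not overlap. It fell by 0.74 in HD-Control (SE 0.04, limma adjusted p = 3.5e-06) and was 0.40 higher in HD-WNT5B than in HD-Control (SE 0.04, limma adjusted p = 2.2e-05), or -0.16 with equal totals. Its relative Hspa4l went from 12150 to 9956 and then 3048 normalized reads (log2 -0.29, SE 0.06, limma adjusted p = 0.00383, and log2 -1.71, SE 0.06, limma adjusted p = 1.5e-08), so the pair moved in opposite directions in the second comparison at the deposited scale. With the trend of length and GC removed the second value for Hspa4l was -0.26.

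Hspa8 (chr9:40800984-40810087) encodes Hsc70, the constitutive Hsp70 of neurons that also strips clathrin coats. Hspa8 had 71520, 71580 and 70760 normalized reads in WT-Control, 58620, 58720 and 59100 in HD-Control and 124000, 129100 and 135100 in HD-WNT5B libraries. Its levels were lowest in the 3 HD-Control libraries and highest in the 3 HD-WNT5B libraries, without overlap. It fell in HD-Control (log2 -0.28, SE 0.03, limma adjusted p = 0.00023) and was 2.20 times higher in HD-WNT5B than in HD-Control (log2 1.14, SE 0.03, limma adjusted p = 6e-09). Of its 50-base words 52.7 percent occur in another gene.

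The stress-inducible Hsp70 genes Hspa1a and Hspa1b, which are silent or low in unstressed tissue, were low in all 3 groups. Mean values of Hspa1a were 223, 264 and 345 normalized reads in WT-Control, HD-Control and HD-WNT5B, and those of Hspa1b were 152, 110.3 and 112. Neither passed in HD-Control against WT-Control (log2 0.25 and -0.45, limma adjusted p = 0.332 and 0.54) or in HD-WNT5B against HD-Control (0.36 and -0.31, adjusted p = 0.115 and 0.613), although both passed in the first with a weight for each group (adjusted p = 0.00739 and 0.00177) and Hspa1a passed in the second without the first HD-WNT5B library (0.48, adjusted p = 0.0272). Their upstream 250 bases in RefSeq (GRCm38.p6) are identical at 247 positions, or 98.8 percent, and 66.3 and 62.3 percent of their 50-base words are shared, so counts of the pair are uncertain. Hspa1l, a testis relative with 71.4 percent of its words shared, was at 12.3, 36.9 and 27.2 and was not called (log2 1.40 and -2.11, limma adjusted p = 0.374 and 0.127). Its HD-WNT5B libraries were at 0, 0 and 81.5, and without the third the change from HD-Control was -3.72 (adjusted p = 1.76e-05).

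The other Hsp70 genes differed among themselves. Hspa2, a testis-rich Hsp70 also made in brain, rose from 1727 to 2794 in HD-Control (log2 0.69, SE 0.11, limma adjusted p = 0.00095) and Hspa14, which sits with its J-domain partner on the ribosome, from 1058 to 1677 (log2 0.66, SE 0.12, limma adjusted p = 0.00211). Neither was called in HD-WNT5B (log2 -0.02 and -0.16, limma adjusted p = 0.881 and 0.24), but with equal totals both were called lower, at -0.57 and -0.72 (adjusted p = 0.000725 and 0.000268). Hspa12a and Hspa12b are distant relatives without known folding activity, the second found mainly in endothelium. Hspa12a fell from 9639 to 7574 and then 3842 (log2 -0.35, SE 0.05, limma adjusted p = 0.00054, and log2 -0.98, SE 0.05, limma adjusted p = 1.7e-07), the second value being -0.22 after removal of the length and GC trend. For Hspa12b the libraries read 395, 414 and 396 in WT-Control, 169, 139 and 158 in HD-Control and 537, 1388 and 654 in HD-WNT5B. It was lowest in HD-Control (log2 -1.36, SE 0.32, limma adjusted p = 0.00824) and higher in HD-WNT5B (log2 2.32, SE 0.32, limma adjusted p = 0.00015), where the second library lay above the others. Summed levels of 8 endothelial and mural markers were 18190 to 18580 in WT-Control, 12810 to 13090 in HD-Control and 39330 to 47870 in HD-WNT5B libraries. In HD-WNT5B 3 of them rose and 3 fell, and most of the sum was Cldn5, at 1679 in HD-Control and 28900 in HD-WNT5B, so the markers did not move as one. Their part in the values of Hspa12b was not tested.

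**Figure D3:**
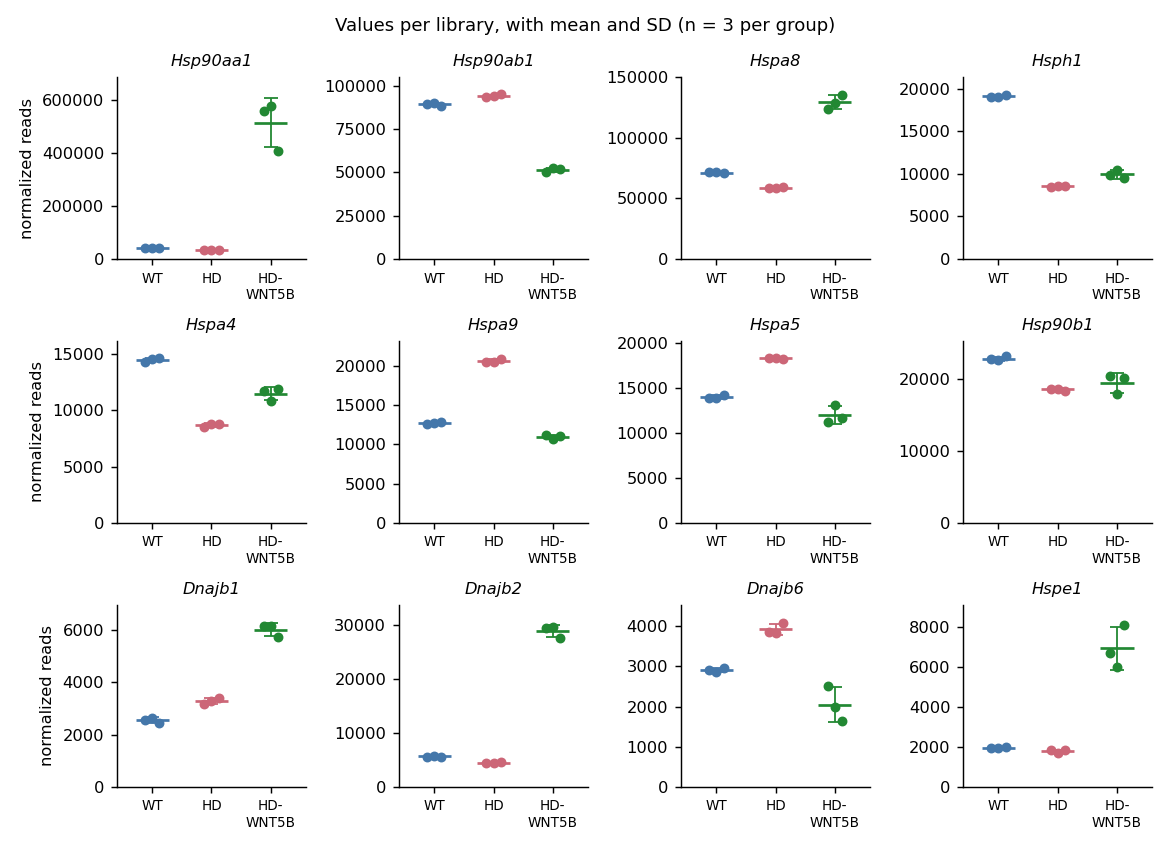
Normalized reads (linear axes from 0) of 12 members in each library by group (points), with the group mean (bar) and SD (error bar, n = 3). Hsph1 and Hspa4 are highest in WT-Control, Hspa9 and Hspa5 are highest in HD-Control, and Hsp90aa1, Dnajb2, Hspa8, Dnajb1 and Hspe1 are highest in HD-WNT5B.

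Of 10 members placed in the ER from textbook knowledge, after their values were seen, 5 rose and 2 (Hsp90b1 and Dnajc1, the latter outside the naming rule) fell in HD-Control against WT-Control, beside 24.5 and 20.7 percent of all genes. In HD-WNT5B against HD-Control 2 rose and 6 fell, beside 35.8 and 41.7 percent. A further 14 members were left without an assigned compartment, so the ER list may be incomplete. Of these, 1 rose and 4 fell in HD-Control, and 4 rose and 5 fell in HD-WNT5B, beside the same shares of all genes. Hspa5 (chr2:34771970-34777547) encodes BiP, the Hsp70 of the ER lumen. The WT-Control libraries held 13930, 13910 and 14270 normalized reads of Hspa5, the HD-Control libraries 18390, 18320 and 18300, and the HD-WNT5B libraries 11230, 13160 and 11680. HD-Control libraries were highest and HD-WNT5B libraries lowest, without overlap. The rise was 0.39 (SE 0.05, limma adjusted p = 0.00054), and HD-WNT5B was 0.61 below HD-Control on the log2 scale (SE 0.05, limma adjusted p = 7.8e-06), a difference of 0.055 after removal of the length and GC trend. Hsp90b1 (chr10:86690209-86705509), the ER Hsp90 called GRP94, went the other way, from 22880 ± 267 to 18580 ± 143 in HD-Control (log2 -0.30, SE 0.05, limma adjusted p = 0.00119), and stood at 19510 ± 1394 in HD-WNT5B (log2 0.07, SE 0.05, limma adjusted p = 0.228). That last difference was called in opposite directions with equal totals (-0.49, adjusted p = 6.15e-05) and after removal of the length and GC trend (0.80, adjusted p = 2.2e-06), and it was called without the second HD-WNT5B library (0.13, adjusted p = 0.00129). The ratio of Hspa5 to Hsp90b1 per kb was 0.537 to 0.540 in WT-Control, 0.863 to 0.872 in HD-Control and 0.482 to 0.645 in HD-WNT5B libraries.

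The pair is a standard example of genes read by the unfolded protein response, whose promoters carry an ER stress element, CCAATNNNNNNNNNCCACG. The 250 bases before the RefSeq start sites (GRCm38.p6) were searched on both strands. These letters were found in 3 of the 53 members that had a promoter entry, and in 0.13 percent of all 27025 genes that had one. They are shown because Hspa5 and Hsp90b1 carry them and moved in opposite directions in HD-Control; capitals mark the match, and each line runs 5′ to 3′ along the gene's strand.
Hspa5, chr2:34772020-34772048 (+): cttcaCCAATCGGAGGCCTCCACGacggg
Hsp90b1, chr10:86705633-86705661 (-): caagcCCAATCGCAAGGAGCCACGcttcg
Hsp90b1, chr10:86705528-86705556 (-), reverse complement of the motif: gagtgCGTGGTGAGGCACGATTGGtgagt
Dnajc3, chr14:118937822-118937850 (+): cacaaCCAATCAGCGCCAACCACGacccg

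Of the J-domain genes of the ER, Dnajb9, Dnajc10, Dnajb12 and Dnajc3 rose in HD-Control. Dnajb9, encoding ERdj4, which takes misfolded proteins to degradation, read 2030, 2047 and 2174 in WT-Control, 3840, 3719 and 3754 in HD-Control and 1746, 2601 and 1741 in HD-WNT5B. All HD-Control values were above all others, and the rise was 0.86 (SE 0.14, limma adjusted p = 0.00134), while HD-WNT5B was 0.92 below HD-Control (SE 0.14, limma adjusted p = 0.00032). That last difference was -0.37 after removal of the length and GC trend (limma adjusted p = 0.0395). Dnajc10, the disulfide reductase ERdj5, rose in HD-Control, at 6974 against 4411 (log2 0.66, SE 0.05, limma adjusted p = 1.9e-05), and its fall in HD-WNT5B (log2 -0.30, SE 0.05, limma adjusted p = 0.00062) turned to 0.48 after removal of the length and GC trend. Dnajb12, an ER membrane protein that helps clear membrane proteins, rose from 2923 to 4320 (log2 0.56, SE 0.06, limma adjusted p = 9.1e-05). Dnajc3, the p58IPK protein known to restrain the kinases PERK and PKR, went from 3526 to 4347 and then 1749 (log2 0.30, SE 0.11, limma adjusted p = 0.0488, and log2 -1.33, SE 0.11, limma adjusted p = 4.3e-06), the fall being -0.29 after removal of the length and GC trend. Its rise in HD-Control was lost without any one of the 6 control libraries (adjusted p of 0.0936 to 0.129). Dnajb11, encoding ERdj3, was not called in HD-Control (log2 0.19, SE 0.15, limma adjusted p = 0.325) and was higher in HD-WNT5B, at 5953, 4126 and 6551 against 2885 to 2959 (log2 0.90, SE 0.15, limma adjusted p = 0.00047; 0.34 and adjusted p = 0.0743 with equal totals). Hspa13, the Stch protein of microsomes, was not called in HD-Control (log2 0.04, SE 0.05, limma adjusted p = 0.554) and lower in HD-WNT5B (log2 -0.73, SE 0.05, limma adjusted p = 1.3e-06), with 0.32 after removal of the length and GC trend.

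Among mitochondrial genes, Hspa9 rose in HD-Control and was lower in HD-WNT5B, and Dnajc15 did the reverse. Hspa9 (chr18:34937414-34954357) encodes mortalin, which pulls proteins in through the inner membrane. Normalized reads of Hspa9 were 12620, 12670 and 12870 in WT-Control, 20520, 20530 and 20910 in HD-Control and 11150, 10620 and 11050 in HD-WNT5B libraries. HD-Control libraries were far above the other groups and HD-WNT5B libraries were lowest. The rise in HD-Control was 0.70 (SE 0.03, limma adjusted p = 8.8e-07), and HD-WNT5B was 0.92 lower than HD-Control (SE 0.03, limma adjusted p = 9.3e-09). After removal of the length and GC trend that last difference was -0.42. The J-domain gene Dnajc15, whose protein sits at the import channel with mortalin, read 3209, 3100 and 3087 in WT-Control, 1474, 1459 and 1412 in HD-Control and 5736, 5408 and 5801 in HD-WNT5B. It was lowest in HD-Control (log2 -1.11, SE 0.05, limma adjusted p = 8.8e-07) and highest in HD-WNT5B (log2 1.96, SE 0.05, limma adjusted p = 1.6e-09). Dnajc19, its close relative at the same channel, was 883, 790 and 4441 (log2 -0.16, SE 0.08, limma adjusted p = 0.138, and log2 2.48, SE 0.08, limma adjusted p = 9.7e-09). Dnaja3, the mitochondrial J-domain protein Tid1, fell from 3235 to 2506 and then 1740 (log2 -0.37, SE 0.05, limma adjusted p = 0.00044, and log2 -0.53, SE 0.05, limma adjusted p = 1.2e-05), and Dnajc30, linked to complex I and ATP synthase, was 1441, 1450 and 5754 (log2 1.98, SE 0.07, limma adjusted p = 1.6e-08). Dnajc30 shares 26.3 percent of its exon bases with a neighbouring gene. The list of 8 members placed in mitochondria, made in the same way as the ER list, may also be incomplete. Of them 1 rose and 2 fell in HD-Control, beside 24.5 and 20.7 percent of all genes. In HD-WNT5B 6 rose and 2 fell, beside 35.8 and 41.7 percent.

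The chaperonin genes Hspd1 (Hsp60) and Hspe1 (Hsp10), which encode the barrel and its lid, lie head to head on chromosome 1. Hspd1 read 8770, 8786 and 8811 in WT-Control, 8804, 8484 and 8682 in HD-Control and 12150, 12320 and 12220 in HD-WNT5B, and Hspe1 read 1919, 1926 and 1981 in WT-Control, 1839, 1711 and 1828 in HD-Control and 6695, 6006 and 8108 in HD-WNT5B. HD-WNT5B libraries were above all others for both genes, and the control groups lay close together. Neither passed in HD-Control (log2 -0.02 and -0.12, limma adjusted p = 0.564 and 0.388). In HD-WNT5B the value for Hspd1 was 0.50 higher than in HD-Control (SE 0.03, limma adjusted p = 3.2e-07), or -0.056 with equal totals. After removal of the length and GC trend it was 0.73 higher. Hspe1 was higher by 1.94 (SE 0.10, limma adjusted p = 2e-07), and the changes of the pair lay closer together after that removal. Their ratio per kb, Hspe1 to Hspd1, was 0.550 to 0.565 in WT-Control, 0.507 to 0.529 in HD-Control and 1.23 to 1.67 in HD-WNT5B. Hspe1 has a transcript in the shortest quintile, whose median over all genes was 1.06, and 44.8 percent of the 50-base words of Hspd1 occur in another gene.

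The window between the chaperonin genes holds the letters of a heat shock element of 3 units, GAANNTTCNNGAA or TTCNNGAANNTTC, in 2 overlapping matches. In the same search this motif was found in 3 of 53 members, Hspd1, Hspe1 and Dnajb6, and in 0.514 percent of all 27025 genes. Hspd1 and Hspe1 share one site. The sequences are shown because one window faces both genes while their levels changed unequally at the deposited scale, and less so after removal of the length and GC trend. Dnajb6 is the sole J-domain member with these letters among those that had a promoter entry. The 12 members without an entry, among them Hsp90aa1, Hsp90ab1, Hspa8, Dnajc2 and Dnajc5, were not searched. Capitals mark the matches.
Hspe1, chr1:55088053-55088082 (+): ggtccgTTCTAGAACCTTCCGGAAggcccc
Dnajb6, chr5:29735844-29735872 (+): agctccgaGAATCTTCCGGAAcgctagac

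Small heat shock protein genes had means of 10.8 to 1439 normalized reads. In HD-Control 1 of 6 rose and 0 fell, beside 24.5 and 20.7 percent of all genes, and in HD-WNT5B 4 rose, 1 fell and 1 was not called, beside 35.8 and 41.7 percent. Hspb1 encodes Hsp27 and went from 218 ± 17.2 in WT-Control to 206 ± 7.36 in HD-Control and 545 ± 104 in HD-WNT5B (SD, n = 3; log2 -0.07, SE 0.18, limma adjusted p = 0.787, and log2 1.37, SE 0.18, limma adjusted p = 0.00012). That rise became -0.35 after removal of the length and GC trend, and 51.7 percent of its 50-base words are shared, mostly with Hsp25-ps1. Hspb8, which works with Bag3 to send aggregated proteins to autophagy, was 718, 899 and 1439 (log2 0.32, SE 0.15, limma adjusted p = 0.108, and log2 0.65, SE 0.15, limma adjusted p = 0.00304; 0.10 with equal totals and 0.19 after removal of the length and GC trend, neither of them called). Hspb6, or Hsp20, a small heat shock protein of muscle and brain, read 286, 308 and 252 in WT-Control, 497, 512 and 522 in HD-Control and 145, 260.2 and 150.1 in HD-WNT5B. It was highest in HD-Control (log2 0.85, SE 0.23, limma adjusted p = 0.0175), a call lost without 5 of the 6 control libraries one at a time, each but the second of WT-Control (adjusted p of 0.0528 to 0.0689), and it was lower in HD-WNT5B (log2 -1.50, SE 0.23, limma adjusted p = 0.00035).

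Hspb3, a muscle small heat shock protein, showed the largest rise among members from a level near the filter. Its libraries read 17.6, 27.5 and 19 in WT-Control, 10.4, 13.3 and 8.62 in HD-Control and 368, 206 and 232 in HD-WNT5B (log2 4.27, SE 0.32, limma adjusted p = 2.7e-06). The fitted fold of such a low gene depends on the added 3, and with the length and GC trend removed it was 2.79. Hspb2, its partner protein in muscle, went from 22 and 12 to 66.8 (log2 2.22, SE 0.31, limma adjusted p = 0.00018), lost its call with a weight for each group (adjusted p = 0.0633) and after removal of the length and GC trend (0.29, adjusted p = 0.422), and shares 30.2 percent of its exon bases with a neighbour. Hspb11, which despite its name belongs to the transport complex of cilia, was 190.0, 168 and 166 and passed in neither comparison.

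Class A and B J-domain proteins of the cytosol feed clients to Hsp70. Dnajb1, encoding Hsp40, the main stress-induced partner of Hsp70, read 2577, 2648 and 2451 in WT-Control, 3185, 3292 and 3417 in HD-Control and 6174, 6150 and 5734 in HD-WNT5B. The 3 groups formed 3 separate steps, with a rise in HD-Control (log2 0.37, SE 0.05, limma adjusted p = 0.00053) and a further one in HD-WNT5B (log2 0.87, SE 0.05, limma adjusted p = 5.1e-07). Dnajb2 (chr1:75236406-75245692) is a neuronal J-domain protein with ubiquitin-binding motifs, known to keep polyglutamine proteins soluble. Dnajb2 had 5601, 5789 and 5516 normalized reads in WT-Control, 4328, 4411 and 4529 in HD-Control and 29440, 29700 and 27720 in HD-WNT5B libraries. It was lowest in HD-Control (log2 -0.35, SE 0.04, limma adjusted p = 0.00014) and 6.54 times its HD-Control level in HD-WNT5B, with 3 libraries within 27720 to 29700 (log2 2.71, SE 0.04, limma adjusted p = 1.1e-10). No 50-base word of Dnajb2 occurs in another gene, and against WT-Control it was 2.36 higher (adjusted p = 2e-10).

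Dnajb6, the suppressor of polyglutamine aggregation named above, moved opposite to Dnajb2 in both comparisons. The WT-Control libraries held 2905, 2858 and 2955 normalized reads of Dnajb6, the HD-Control libraries 3862, 3842 and 4076, and the HD-WNT5B libraries 2508, 1990 and 1645. It was highest in HD-Control (log2 0.43, SE 0.13, limma adjusted p = 0.0251) and lowest in HD-WNT5B (log2 -0.96, SE 0.13, limma adjusted p = 0.00014), with no overlap. The rise in HD-Control lost its call without any one of the 6 control libraries (adjusted p of 0.0609 to 0.0811), and passed with a weight for each group (adjusted p = 2.3e-10). Of its 50-base words 42.8 percent are shared with other gene models. The ratio of Dnajb2 to Dnajb6 per kb was 1.78 to 1.93 in WT-Control, 1.06 to 1.09 in HD-Control and 11.2 to 16.0 in HD-WNT5B libraries.

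Dnajb4, a relative of Dnajb1, read 4773, 4692 and 4838 in WT-Control, 8048, 8037 and 8125 in HD-Control and 1347, 1701 and 1057 in HD-WNT5B. It was highest in HD-Control (log2 0.76, SE 0.14, limma adjusted p = 0.00259) and showed the deepest fall of any member in HD-WNT5B at the deposited scale (log2 -2.58, SE 0.14, limma adjusted p = 3.3e-07). After removal of the length and GC trend it was -1.52, less deep than the fall of Hspb6. Dnajb5, a relative made in neurons that binds class II histone deacetylases, was lower in HD-Control, at 3413 against 5047 (log2 -0.56, SE 0.08, limma adjusted p = 0.00069), and not called in HD-WNT5B (log2 0.14, SE 0.08, limma adjusted p = 0.153), although it was called at -0.41 with equal totals (adjusted p = 0.00306), at 0.48 after removal of the length and GC trend (0.000454) and at 0.25 without the second HD-WNT5B library (0.000201). Dnaja1 and Dnaja2 are the general cytosolic class A proteins. Dnaja1 went from 9253 to 8023 and then 6597 (log2 -0.21, SE 0.08, limma adjusted p = 0.074, and log2 -0.29, SE 0.08, limma adjusted p = 0.0108; 0.89 after removal of the length and GC trend). Dnaja2 went from 10490 to 11350 and then 15590 (log2 0.11, SE 0.06, limma adjusted p = 0.164, and log2 0.45, SE 0.06, limma adjusted p = 0.00011; -0.10 with equal totals).

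Class C proteins put the J domain to special uses. Dnajc5 encodes cysteine string protein, a synaptic vesicle chaperone that keeps the SNARE protein SNAP-25 folded, and Dnajc6 encodes auxilin, which calls Hsc70 to clathrin coats in neurons. Dnajc5 read 23960, 24070 and 23850 in WT-Control, 26320, 26010 and 26240 in HD-Control and 48720, 46210 and 42650 in HD-WNT5B, and Dnajc6 read 13090, 13350 and 13540 in WT-Control, 11680, 11500 and 11520 in HD-Control and 3304, 3195 and 2638 in HD-WNT5B. In HD-WNT5B libraries Dnajc5 was above and Dnajc6 below every other library (log2 0.81, SE 0.04, limma adjusted p = 3.5e-07, and log2 -1.93, SE 0.08, limma adjusted p = 3.8e-08). In HD-Control both were within 0.20 of WT-Control on the log2 scale: Dnajc5 passed (0.13, adjusted p = 0.0455) but not without any one of the 6 control libraries (0.1 to 0.12) or with equal totals (0.0641), and Dnajc6 did not pass (-0.20, adjusted p = 0.0578). Dnajc6 did pass, at -0.27 to -0.18, with equal totals (adjusted p = 0.0214), upper-quartile factors (0.0137), trimmed-mean factors (0.0404), the length and GC trend removed (0.0134), voom (0.00108) and a weight for each group (1.52e-08). Dnajc13, the endosomal protein RME-8, was 4630, 4743 and 1406 (log2 0.04, SE 0.11, limma adjusted p = 0.834, and log2 -1.77, SE 0.11, limma adjusted p = 8.1e-07; -0.63 after removal of the length and GC trend).

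Dnajc27, a Rab-like GTPase with a J domain, fell in both comparisons. It read 8253, 8090 and 7849 in WT-Control, 5206, 5106 and 5138 in HD-Control and 1408, 1184 and 958 in HD-WNT5B (log2 -0.65, SE 0.12, limma adjusted p = 0.00222, and log2 -2.14, SE 0.12, limma adjusted p = 3.3e-07). Dnajc17, a nuclear protein with an RNA-recognition motif, rose in both: its libraries read 353, 326 and 391 in WT-Control, 643, 662 and 672 in HD-Control and 3720, 3013 and 4312 in HD-WNT5B (log2 0.88, SE 0.14, limma adjusted p = 0.00091, and log2 2.46, SE 0.14, limma adjusted p = 3.4e-07). No group overlapped another for either gene. Dnajc28 was 779, 375 and 543, lower in HD-Control (log2 -1.05, SE 0.26, limma adjusted p = 0.00983) and not called in HD-WNT5B (log2 0.46, SE 0.26, limma adjusted p = 0.134; -0.095 with equal totals), but it was called after removal of the length and GC trend (1.06, adjusted p = 0.00714) and without the first HD-WNT5B library (0.78, adjusted p = 0.000562). Dnajc7, a cytosolic protein that binds both Hsp70 and Hsp90, rose from 9345 to 12720 in HD-Control (log2 0.44, SE 0.06, limma adjusted p = 0.00043), and Dnajc9, which chaperones histones H3 and H4, from 1462 to 2056 (log2 0.49, SE 0.11, limma adjusted p = 0.00588). In HD-WNT5B Dnajc7 was at 11480 (log2 -0.15, SE 0.06, limma adjusted p = 0.0441), a call lost without any one library but the third of HD-WNT5B (adjusted p of 0.0636 to 0.128), and Dnajc9 at 1978 was not called (log2 -0.07, SE 0.11, limma adjusted p = 0.576). Dnajc9 was called lower with equal totals (-0.62, adjusted p = 0.000471), after removal of the length and GC trend (-0.29, adjusted p = 0.0377) and without the first HD-WNT5B library (-0.19, adjusted p = 0.0324).

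Dnajc2, the ribosome-bound partner of Hspa14, was 1766, 1512 and 5304 (log2 -0.22, SE 0.05, limma adjusted p = 0.00904, and log2 1.81, SE 0.05, limma adjusted p = 6.2e-09). Dnajc21, which helps recycle factors of the large ribosomal subunit, was 699, 780 and 296 (log2 -1.58, SE 0.42, limma adjusted p = 0.00756). Dnajc12, a partner of aromatic amino acid hydroxylases, read 515, 513 and 529.8 in WT-Control, 546, 501 and 567 in HD-Control and 161, 304 and 17.2 in HD-WNT5B, with the third HD-WNT5B library far below the others (log2 -2.43, SE 0.84, limma adjusted p = 0.0263). Its change was -3.23 without the second and -1.27 without the third HD-WNT5B library, and its call was lost after removal of the length and GC trend (-1.84, adjusted p = 0.0716) and without any one HD-Control library (adjusted p of 0.0577 to 0.0649). The 13 J-domain genes outside the naming rule ran from -0.85 to 1.01 in HD-Control against WT-Control and from -1.78 to 1.37 in HD-WNT5B against HD-Control.

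The lengths of the members' transcripts bear on the second comparison. From the shortest to the longest quintile the medians of the members were 1.16, -0.42, 0.60, -0.73 and -0.29, without the steady fall seen over all genes. Of 15 members in the shortest quintile 9 rose and 2 fell, and of 14 in the second 4 rose and 6 fell. Of 14 in the third quintile 7 rose and 4 fell, of 11 in the fourth 3 rose and 6 fell, and of 11 in the longest 4 rose and 6 fell. With a smooth trend of length and GC content removed in each library, 50 members passed, 29 higher and 21 lower, beside 73.4, 40.9 and 32.4 percent of all genes. Hsp90aa1 was then 4.54 higher in HD-WNT5B than in HD-Control and Dnajc15 3.05 higher, both larger than at the deposited scale, while Hspe1 was 1.13, Dnajc17 1.15 and Hspa4l -0.26, all closer to 0. Dnajc27 at -1.52, Dnajc6 at -1.07 and Dnajc30 at 1.32 were also closer to 0, and Dnajc5 at 1.66, Dnajc2 at 2.68, Hspa4 at 1.19, Dnaja2 at 1.07 and Hsph1 at 0.99 were farther from it.

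**Figure D4:**
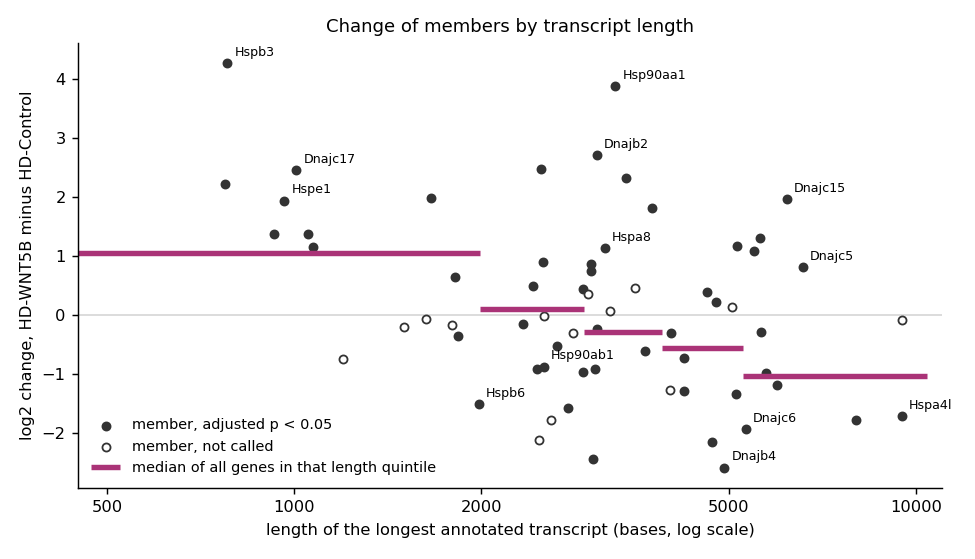
Log2 change of the 65 members in HD-WNT5B minus HD-Control (vertical axis) against the length of the longest annotated transcript (bases, log axis); filled points passed limma at an adjusted p below 0.05 and bars are medians of all genes in each quintile of length. The bars step down from 1.06 to -1.03, and Hsp90aa1 at 3.88 and Dnajb2 at 2.71 lie far above the bar of their length.

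HD-WNT5B was also compared with WT-Control. There 55 members (84.6 percent) passed, beside 77.9 percent of all genes, 31 higher and 24 lower, beside 35.9 and 42.1 percent. With equal totals 20 were higher and 33 lower, beside 25.9 and 55.5 percent. Hspa8 was 0.86 above and Hsph1 0.94 below WT-Control on the log2 scale (limma adjusted p = 3.2e-08 and 4.2e-08). Dnajb9 was near its WT-Control level (log2 -0.06, adjusted p = 0.693).

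Genes that regulate or assist the members were taken from 5 lists of non-members, whose counts stand beside 24.5 percent higher and 20.7 percent lower of all genes in HD-Control and 35.8 and 41.7 percent in HD-WNT5B. Of 7 genes of heat shock factors and their regulators, 1 rose and 1 fell in HD-Control, and 1 rose and 3 fell in HD-WNT5B. The 1 that rose in HD-WNT5B was the regulator Hsbp1, and the 3 that fell were the factors Hsf1, Hsf2 and Hsf4. Hsf1, the main heat shock factor, went from 1967 to 1382 and then 626 (log2 -0.51, limma adjusted p = 0.0117, and -1.16, adjusted p = 3.6e-05). Hsf2 rose from 1296 to 2037 in HD-Control (0.65, adjusted p = 4e-05), and its fall in HD-WNT5B (-0.23, adjusted p = 0.0052) turned to 1.02 after removal of the length and GC trend. Hsbp1, a small inhibitor of HSF1, was 0.74 higher in HD-WNT5B (adjusted p = 8.6e-06), or 0.18 with equal totals, and lost its call after removal of the length and GC trend (0.12, adjusted p = 0.109).

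Of 14 Hsp70 exchange factors and adaptors, 2 rose and 3 fell in HD-Control, and 7 rose and 7 fell in HD-WNT5B. Hikeshi, the importer that carries Hsp70 into the nucleus, fell from 1297 to 540.0 in HD-Control (-1.26, limma adjusted p = 1.7e-05). Bag5, an exchange factor, rose by 0.55 (adjusted p = 1.1e-05). In HD-WNT5B Bag1, which links Hsp70 to the proteasome, rose from 2681 to 39930 (3.89, adjusted p = 2.6e-11). Stub1, the CHIP ubiquitin ligase of chaperone clients, rose from 4608 to 18800 (2.03, adjusted p = 7.2e-10). Sil1, an exchange factor of BiP, rose from 1372 to 6599 (2.26, adjusted p = 9.8e-09). After removal of the length and GC trend these rises were 2.96, 1.18 and 1.57. Among the 7 that fell were Bag4 (-2.59, limma adjusted p = 4.5e-06) and Hyou1 (-1.79, limma adjusted p = 5.2e-08), both outside the naming rule.

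Of 15 Hsp90 co-chaperones, 3 rose and 5 fell in HD-Control, and 7 rose and 6 fell in HD-WNT5B. Fkbp4, the FKBP52 immunophilin of steroid receptors, fell from 5140 to 3538 (-0.54, limma adjusted p = 2.2e-05) and stood at 12030 in HD-WNT5B (1.76, adjusted p = 1.8e-09). Fkbp5, the FKBP51 immunophilin that restrains the glucocorticoid receptor, rose from 2698 to 8228 in HD-Control (1.61, adjusted p = 4.8e-08), and its further rise to 12040 in HD-WNT5B (0.55, adjusted p = 9.7e-07) was -0.0055 with equal totals. Unc45a, a myosin chaperone, rose by 0.86 in HD-Control (adjusted p = 4e-05). Cdc37, which brings kinases to Hsp90, and Ptges3, the p23 protein that steadies closed Hsp90, rose in HD-WNT5B by 1.74 and 1.60 (adjusted p = 2.4e-09 and 4.5e-09).

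The TRiC chaperonin folds actin and tubulin, and of its 8 listed subunits all but Cct6a were tested. Of these 7, 4 rose and 0 fell in HD-Control, and 6 rose and 1 fell in HD-WNT5B. The rises in HD-Control were small, with Tcp1 at 0.31 (limma adjusted p = 2.3e-05) and Cct2 at 0.48 (adjusted p = 0.00419). The rise of Tcp1 in HD-WNT5B (0.29, adjusted p = 5.3e-06) was -0.26 with equal totals, whereas Cct5 and Cct7 rose by 1.68 and 1.55 (adjusted p = 7.8e-09 and 2.2e-08). Of 13 other chaperones tested, which leave out the listed Cryaa, 6 rose and 4 fell in HD-Control, and 10 rose and 3 fell in HD-WNT5B. Cryab, the small heat shock protein alpha-B crystallin of oligodendrocytes and astrocytes, fell from 5848 to 1898 (-1.62, adjusted p = 7.4e-08), and its rise in HD-WNT5B (0.58, adjusted p = 1.2e-06) was 0.02 with equal totals and -0.59 after removal of the length and GC trend. Summed oligodendrocyte markers moved beside Cryab, from 452400 to 457000 in WT-Control to 329500 to 332000 in HD-Control and 739800 to 784900 in HD-WNT5B libraries, and their part in it was not tested. Pfdn5 and Pfdn6, subunits of prefoldin, which hands actin and tubulin to TRiC, rose in HD-WNT5B by 3.94 and 3.75 (adjusted p = 2e-11 and 4.9e-11), or 2.70 and 2.14 after removal of the length and GC trend. Prefoldin genes did not move as one. Pfdn1 and Pfdn2 rose by 2.21 and 0.95 (limma adjusted p = 3.8e-09 and 4.7e-07). Pfdn4, outside the naming rule, fell from 782 to 170 (-2.24, limma adjusted p = 2.7e-05).

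**Figure D5:**
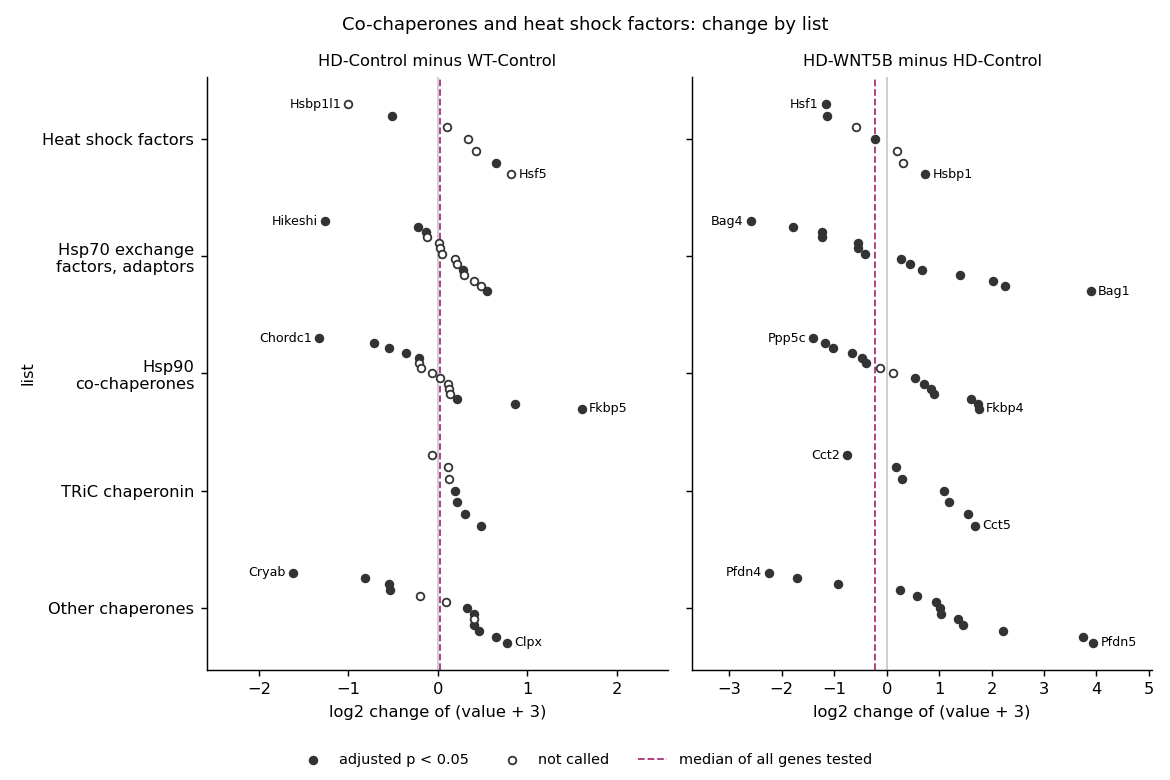
Log2 change of (value + 3) of the heat shock factors, co-chaperones and other chaperones of 5 lists (rows; points sorted by change) in HD-Control minus WT-Control (left) and HD-WNT5B minus HD-Control (right), with different horizontal scales. Filled points passed limma at an adjusted p below 0.05 and the dashed line is the median of all genes tested; Bag1 at 3.89 and Pfdn5 at 3.94 stand farthest right in HD-WNT5B, and Cryab at -1.62 farthest left in HD-Control.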

How the data were processed

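Per the submitters' processing notes, reads were aligned with STAR to mm10; these sources name no version, counting program or normalization. The authors deposited one signal value per protein-coding gene and library, treated here as reads divided by one factor per library, since 95.2 to 98.7 percent of low values are whole multiples of one step (tolerance 0.05). The steps gave the estimated depths. GENCODE M21 supplied symbols, positions, transcript lengths and shared 50-base words; the library kit does not keep the strand, so overlapping exons cannot be separated. Log2(value + 3) of 15411 genes was fitted by group with limma 3.58.1 in R 4.3.3, using a trend of variance on the mean. p-values were adjusted over all genes by the Benjamini-Hochberg method, and the fold changes of low genes are understated. The fit was tested on simulated data. Named were all heat shock proteins, 13 J-domain genes by symbol, the 6 largest non-overlapping called rises and falls of J-domain genes per comparison, and up to 3 genes per list by p. The members and lists were chosen with earlier results of these data known, and compartments were assigned after values were seen.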

Additional observations from a re-analysis of the deposited data

How the results depend on the processing

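In HD-Control against WT-Control 53 members passed with a weight for each group and 54 in a fit of the 2 groups alone, with 26 lower in each. In HD-WNT5B against WT-Control equal totals left 20 members higher, and removal of the length and GC trend left 14 lower. Leaving out one library gave 30 to 42, 49 to 55 and 52 to 59 members in the 3 comparisons; by direction 14 to 22 higher and 16 to 20 lower, 27 to 29 and 22 to 27, and 29 to 32 and 22 to 27. With a replicate block 32, 51 and 55 members passed. Deviations of same-numbered libraries correlated at -0.078 to 0.021, so no pairing by number was detected. Such low values cannot show that there is none. The voom fit on estimated reads, chosen after seeing the data, gave 42, 53 and 56. The edgeR test was not run, because the values are not exact whole reads, and trimmed-mean factors were computed without edgeR.

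Signs changed in HD-Control against WT-Control, none of them for a called gene, with upper-quartile factors for Dnajc13 (-0.027), Hspa13 (-0.021), Dnajc12 (-0.013) and Dnajc30 (-0.052). Dnajc30 was -0.016 with equal totals, -0.017 with trimmed-mean factors, -0.028 with the length and GC trend removed, and -0.027 to 0.034 without single libraries. In HD-WNT5B against HD-Control, equal totals gave Hsp90b1 -0.49, Hspa4 -0.16, Fkbp5 -0.0055, Cct8 -0.38, Hspd1 -0.056, Hsph1 -0.34, Dnaja2 -0.10, Dnajb5 -0.41, Dnajc28 -0.095, Hikeshi -0.11, Tcp1 -0.26, Hsf5 -0.34 and Hspa1a -0.19. Removal of the length and GC trend gave Hspb1 -0.35, Hsf2 1.02, Hspa5 0.055, Dnajc10 0.48, Dnaja1 0.89, Cryab -0.59 and Hspa13 0.32. Without single libraries the range crossed 0 for 5 genes that were not called: Dnajc9 (-0.19 to 0.044), Hspa2 (-0.14 to 0.11), Hspb11 (-0.61 to 0.32), Hspa1b (-0.91 to 0.34) and Hsf5 (-0.29 to 0.74).

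Depth was lowest in HD-WNT5B libraries, which limits the low members there (Hspb2, Hspb3, Hspa1b, Dnajc12), and the labels do not separate animals from technical repeats.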
